A study of Neurospora crassa with 8 samples.

Results

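Of 9730 genes counted in Neurospora crassa, a filamentous ascomycete fungus, 60 were low without iron in both ve-1 and wild type. They were chosen from the data themselves. Counts were divided by median-of-ratios size factors, 1 was added to each group mean, and a gene was kept when both standard-medium means were at least 100 and under 3-fold apart and the iron-free mean was at most 1/4 of the standard mean in each genotype. Another 6 genes were left out by name, and 2 of those met the same limits. The fall without iron and the likeness of both genotypes in standard medium are therefore what defined the set, and they are described below without a test. Of the 60 genes, 7 have a symbol in the annotation of assembly NC12 (ccg-4, pmg, ena-1, tca-11, ota, acd-2 and gh31-3) and 53 are known there by locus only.

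The poly(A) RNA came from shaken liquid cultures grown from conidia for 48 hours at 32 degrees C in Vogel's minimal medium with 1.5% sucrose, labelled as mycelia. The 4 groups, each with 2 cultures, were ve-1 in iron-free medium, ve-1 in standard medium, wild type in iron-free medium and wild type in standard medium. Iron was withheld by leaving it out of the medium and treating the glassware with EDTA and acid, and the iron that remained is not stated. The labels do not say which lesion the ve-1 strains carry; both ve-1 cultures and both wild-type cultures came from separate strains, going by codes in the names of the deposited files. Library totals ran from 6654585 to 10192729 counts, and size factors from 1.02 to 1.54 in iron-free and from 0.769 to 0.863 in standard medium. The ve-1 transcript followed the labels, with 15 to 80 counts in ve-1 libraries and 1077 to 2977 in wild-type libraries.

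Iron serves in haem and iron-sulfur clusters, and so in respiration, the tricarboxylic acid cycle and peroxide breakdown. Fungi short of iron are known to take it up through siderophores and to lower the synthesis of proteins that use it. VE-1 belongs to the velvet family of fungal regulators, known for linking development and secondary metabolism to light. Because these are whole cultures, fewer cells of a type and less RNA per cell cannot be told apart.

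The 60 genes took a much smaller part of the sequenced RNA without iron. They held 0.58% (Wilson 95% interval 0.575 to 0.586) and 0.214% (0.212 to 0.217) of all counts in the ve-1 iron-free libraries, against 2.82% and 3.11% in the ve-1 standard libraries. In wild type they held 0.76% and 0.664% without iron, against 5.41% and 3.89% in standard medium. These intervals cover counting error only. The 4 genes with the most reads were NCU04314, NCU05897, NCU05338 and NCU06524. They made up 0.373% and 0.0937% of the ve-1 iron-free libraries, against 1.59% and 2.03% of the ve-1 standard libraries. In wild type they made up 0.598% and 0.562% without iron, against 3.84% and 2.92% in standard medium.

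**Figure D1:**
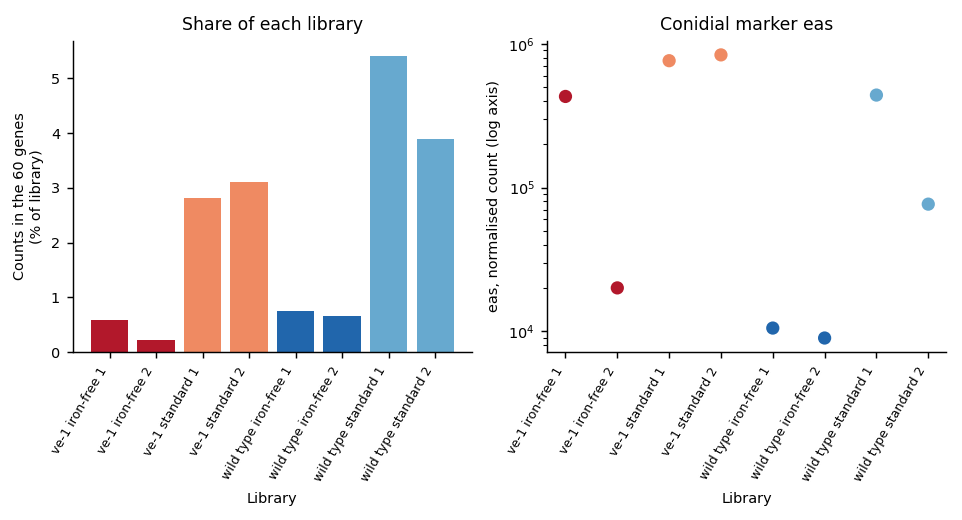
Left, the percentage of each library's counts held by the 60 genes (bars, 1 per library); right, the normalised count of the conidial hydrophobin gene eas in the same libraries (points, log axis). The 4 iron-free libraries hold 0.214% to 0.76% and the 4 standard libraries 2.82% to 5.41%, while eas is at 430164 in ve-1 iron-free replicate 1 and at 20017 in replicate 2.

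The median fall was 9.78-fold in ve-1 and 11.4-fold in wild type. Falls ran from 4.03-fold to 190.8-fold in ve-1 and from 4.28-fold to 190.9-fold in wild type. A fall of over 10-fold was seen for 29 genes in ve-1, 30 in wild type and 21 in both. The fall was the larger one in ve-1 for 26 genes and in wild type for 34. Just inside the limit of 1/4 lay NCU02579, NCU02580 and NCU04936, at 0.248, 0.244 and 0.238 in ve-1; just outside lay NCU04112 and NCU11323, at 0.253 and 0.255 in wild type, and NCU03372, at 0.255 in ve-1.

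**Figure D2:**
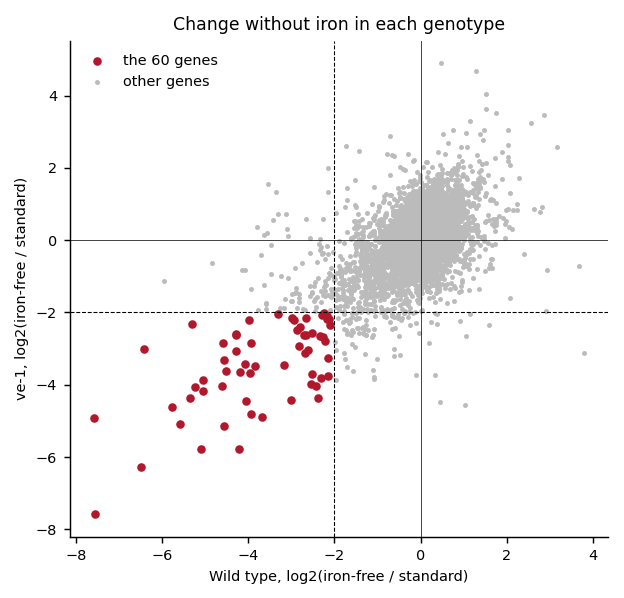
Log2 ratio of iron-free to standard group means (plus 1) in wild type (horizontal) and ve-1 (vertical) for the 5028 genes that met both conditions on standard medium. Dashed lines mark 1/4; the 60 genes are those below and left of both lines, and the limit put them there.

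Among the largest falls, NCU02238 had 1.96 and 8.42 normalised counts in ve-1 without iron, against 1493 and 866 in ve-1 with it. In wild type it had 9.08 and 4.88 without iron, against 2144 and 879 with it. Its iron-free and standard libraries did not overlap in either genotype, as the limit on the means made likely. NCU07869 had 394 and 99.7 in ve-1 iron-free libraries, against 8112 and 6826 in ve-1 standard ones, and 125 and 57.6 in wild-type iron-free libraries, against 21551 and 13661 in standard ones. In NCU07869 the groups were far apart in both genotypes, and farther in wild type. NCU05079 had 40.2 and 22.7 in ve-1 without iron, against 2497 and 1032 with it, and 104.5 and 51.7 in wild type without iron, against 4416 and 996 with it. NCU01231 had 86.3 and 24.6 in ve-1 without iron, against 1931 and 1868 with it, and 166 and 41 in wild type without iron, against 7255 and 2748 with it. NCU17100 had 63.7 and 69.3 in ve-1 without iron, against 1702 and 1065 with it, and 84.8 and 24.4 in wild type without iron, against 2581 and 2000 with it. These 3 genes stood at least 20.5-fold lower without iron in either genotype by their group means. In NCU07894, in both genotypes, and in NCU07748, in wild type, the standard mean rested mostly on 1 library. NCU07894 had 11.8 and 0.647 in ve-1 without iron, against 308 and 40.3 with it, and 5.3 and 1.95 in wild type without iron, against 479 and 24.8 with it. NCU07748 had 0 and 1.94 in ve-1 without iron, against 79.9 and 133 with it, and 8.33 and 12.7 in wild type without iron, against 13 and 414 with it. In wild type the lower of its standard libraries was scarcely above the iron-free ones.

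Genes with many reads followed the same course at a different scale. NCU05897 had 8308 and 383 normalised counts in ve-1 without iron, against 24495 and 46049 with it, and 2087 and 352 in wild type without iron, against 133248 and 76522 with it. NCU05338 had 7765 and 1891 in ve-1 without iron, against 30081 and 48809 with it, and 10543 and 10085 in wild type without iron, against 70869 and 56413 with it. NCU06524 had 4498 and 1607 in ve-1 without iron, against 18226 and 25911 with it, and 1827 and 2594 in wild type without iron, against 62878 and 43417 with it. In all 3 genes replicate 1 of ve-1 without iron was well above replicate 2, while no iron-free library reached a standard library of its genotype.

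NCU03415 had 803 and 497 normalised counts in ve-1 without iron, against 9961 and 13302 with it, and 1084 and 278 in wild type without iron, against 27763 and 17397 with it. NCU04914 had 873 and 87.4 in ve-1 without iron, against 4303 and 6528 with it, and 786 and 564 in wild type without iron, against 10712 and 8670 with it. For both genes the standard libraries of wild type were the highest. NCU02580 had 2175 and 687 in ve-1 without iron, against 5860 and 5893 with it, and 791 and 405 in wild type without iron, against 6992 and 4854 with it. NCU04635 had 1728 and 471 in ve-1 without iron, against 8304 and 4875 with it, and 687 and 1106 in wild type without iron, against 6523 and 3705 with it. These last 2 genes were closer to the limit, with falls of 4.1-fold and 5.99-fold in ve-1.

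**Figure D3:**
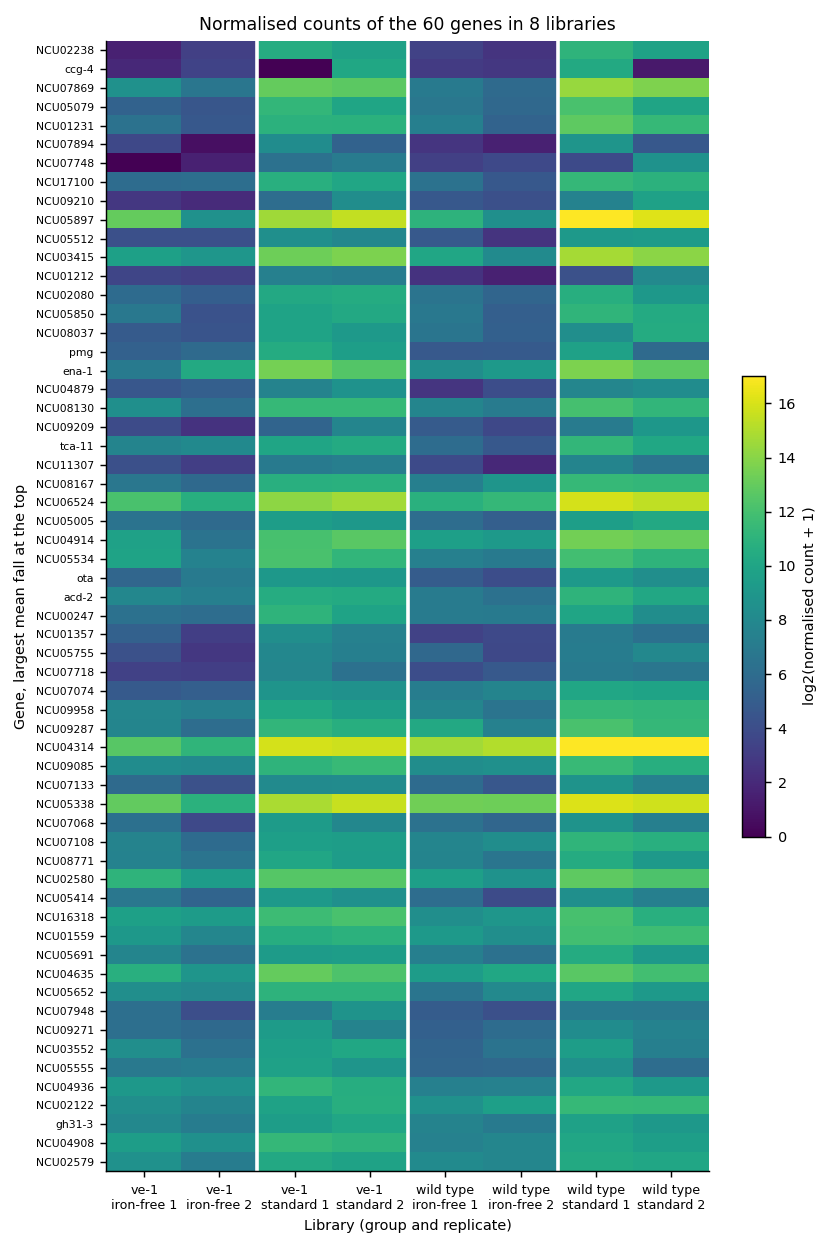
Log2(normalised count + 1) of the 60 genes (rows, largest mean fall at the top) in the 8 libraries (columns). The iron-free columns are darker than the standard columns of the same genotype in each row except that of ccg-4, where 1 standard library of each genotype is also dark.

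The members with a symbol include genes of metabolism and transport. The gene ota, for ornithine transaminase, which links arginine breakdown to proline, had 49 and 120.4 normalised counts in ve-1 without iron, against 528 and 514 with it. In wild type it had 29.5 and 15.6 without iron, against 583 and 340 with it. The groups did not overlap in either genotype, as the limit on the means made likely. The gene tca-11, which carries a tricarboxylic acid cycle symbol, had 207 and 267 in ve-1 without iron, against 1053 and 1333 with it, and 64.3 and 24.4 in wild type without iron, against 2432 and 1146 with it. The gene acd-2 had 237 and 163 in ve-1 without iron, against 1504 and 1384 with it, and 132 and 82 in wild type without iron, against 2181 and 1160 with it.

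The sodium-pump ATPase gene ena-1 had 120.6 and 1275 normalised counts in ve-1 without iron, against 11382 and 5779 with it, and 322 and 560.2 in wild type without iron, against 12814 and 7302 with it. Its ve-1 iron-free replicates differed by about as much as some genes of the set did between media. The gene pmg, named after the general amino acid permease system of Neurospora, had 38.2 and 58.9 in ve-1 without iron, against 1418 and 749 with it. In wild type it had 26.5 and 27.3 without iron, against 869 and 58.3 with it, so that its wild-type standard mean rests on replicate 1. The gene gh31-3, of glycoside hydrolase family 31, had 251 and 140.5 in ve-1 without iron, against 711 and 1064 with it, and 192 and 128 in wild type without iron, against 859 and 548 with it. It lay near the limit in both genotypes.

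The gene ccg-4, which encodes the pheromone precursor of mating type A, met the rule by its means only. It had 2.94 and 9.71 normalised counts in ve-1 without iron, against 0 and 1133 with it. In wild type it had 6.81 and 5.86 without iron, against 1323 and 1.24 with it. It was the only gene of the 60 whose libraries overlapped between media, and it did so in both genotypes. The limit on the means left little room for overlap, so its absence in the other genes is no added support. The standard libraries that held it were those with counts of the mating-type gene matA-1, which had 0 and 403 counts in ve-1 and 118 and 0 in wild type. Without iron matA-1 had 1 and 5 counts in ve-1 and 74 and 0 in wild type. Matched by strain codes, ccg-4 without iron stood at 0.0059 of its standard level in wild-type replicate 1 and at 0.0094 in ve-1 replicate 2 (counts plus 1). The other strains held hardly any of it in either medium.

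The fall was not equally firm from strain to strain. With each iron-free library set against the standard library of its own strain, 30 genes were at or below 1/4 in all 4 strains, 23 in 3 strains and 7 in 2 strains. The same limit and libraries chose the genes, so these counts describe the set and do not test it. The 7 were ccg-4, NCU16318, NCU09271, NCU03552, NCU05555, NCU02122 and NCU04908. A stricter reading, with every iron-free library at most 1/4 of every standard library of its genotype, left 23 of the 60. The match of strains rests on codes in file names. The libraries matched as the second ve-1 strain had 5 matA-1 counts without iron and 403 with it, and whether they are of 1 strain was not tested.

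Replicates of a group differed more in these genes than in the other 4968 genes that met the conditions on standard medium. The rule chose the 60 on means of these same libraries, which can favour genes with a large spread. It also chose genes with low iron-free counts, where counting error widens the fold between replicates. The comparison therefore only describes the set. The median fold between replicates was 2.41 in ve-1 iron-free, 1.49 in ve-1 standard, 1.81 in wild-type iron-free and 1.75 in wild-type standard libraries, against 1.24, 1.16, 1.20 and 1.19 in the other genes. The differences ran one way in some groups. Replicate 1 was the higher one for 48 of the 60 genes in ve-1 iron-free medium (80% against 51.2% of the other genes), 33 in ve-1 standard (55% against 48%), 39 in wild-type iron-free (65% against 49.4%) and 50 in wild-type standard medium (83.3% against 50.5%). NCU05897, given above, shows it.

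Markers of conidia, the asexual spores, also differed between replicates, but not all in 1 direction. The hydrophobin gene eas, whose product coats conidia, had 430164 and 20017 normalised counts in ve-1 iron-free, 762785 and 837162 in ve-1 standard, 10518 and 8966 in wild-type iron-free, and 439747 and 76601 in wild-type standard libraries. The sum of 5 conidial markers (eas, con-6, con-8, con-10 and con-13) was 443051 and 24965 in ve-1 iron-free, 865194 and 976899 in ve-1 standard, 23916 and 55050 in wild-type iron-free, and 478121 and 128305 in wild-type standard libraries. Without eas the sums were 12888 and 4948 in ve-1 iron-free, 102410 and 139737 in ve-1 standard, 13398 and 46084 in wild-type iron-free, and 38374 and 51704 in wild-type standard libraries. In ve-1 iron-free medium replicate 1 was thus the higher one with and without eas, as it was for most of the 60 genes. In wild-type standard medium it was the higher one for eas and for most of the 60 genes, and the lower one for the sum without eas. That sum is mostly con-8, at 33879 and 47610 there. By single marker, replicate 1 was also the higher one for con-6 (2037 and 650) and con-13 (235 and 26). It was the lower one for con-8 and con-10 (2222 and 3418). No marker was at 0 apart from con-13, in replicate 2 of both iron-free groups. The markers' part in the fall of the 60 genes was not tested. With any 1 library left out the rule took from 44 to 99 genes. It took 99, among them all 60, without ve-1 iron-free replicate 1, and 91, among them 55, without wild-type standard replicate 2.

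Whether ve-1 changed what was left of these transcripts without iron was tested between the iron-free groups. The rule did not compare these groups, but it did use their values against standard medium. With tca-11 in the lead, ve-1 held more transcript of ota, NCU04908 and NCU04936 as well, while NCU04314, NCU07074 and NCU08167 were lower. That made 7 of the 60 genes at an adjusted p under 0.05 (edgeR quasi-likelihood test with Benjamini-Hochberg adjustment over 8118 genes), or 11.7%, against 18.5% of all genes tested; 4 were higher, against 8.36% of all genes, and 3 lower, against 10.1%. The median log2 fold change was 0.30 over the 60 genes and 0.04 over all genes, with median standard errors of 0.61 and 0.32. The median over the 60 genes was -0.44 without ve-1 iron-free replicate 1 and -0.13 without wild-type iron-free replicate 2. Both ve-1 libraries lay above both wild-type libraries for 11 of the 60 genes and below them for 13, where 30% and 30.9% of all genes did so. DESeq2 called the same 7 and also NCU05534 (higher) and NCU09287 (lower), where it called 21.5% of all genes. All 60 genes were tested, but they entered through their standard-medium counts; with only the 4 iron-free libraries 58 passed the filter on low counts, by which a gene low in every library is left out.

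**Figure D4:**
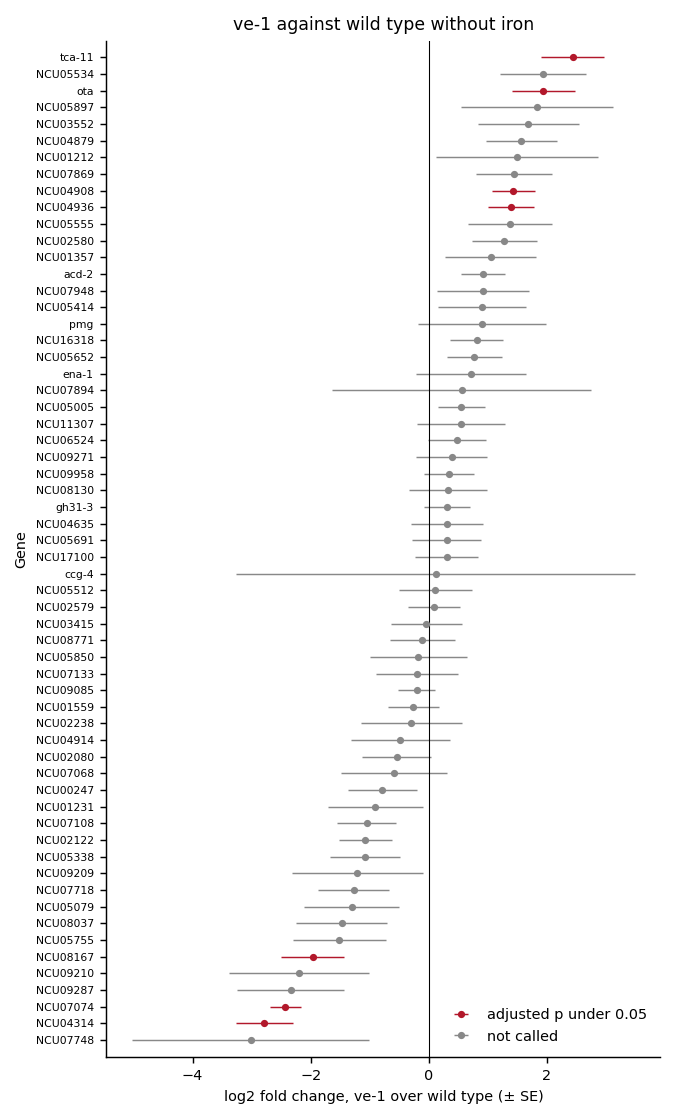
Log2 fold change of ve-1 over wild type in iron-free medium for the 60 genes, with standard errors from the edgeR fit (2 libraries a group). The 7 genes with an adjusted p under 0.05 are in red, from -2.79 for NCU04314 to 2.43 for tca-11; NCU07748 lies lower still, at -3.02, with a standard error of 2.01.

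The gene tca-11 averaged 237 ± 42.7 normalised counts in ve-1 and 44.4 ± 28.2 in wild type without iron (SD, n = 2 each), a log2 fold change of 2.43 (SE 0.53, edgeR adjusted p = 0.0229). For ota, at 49 and 120.4 in ve-1 against 29.5 and 15.6 in wild type, it was 1.94 (SE 0.53, edgeR adjusted p = 0.0453). In standard medium the ve-1 to wild-type ratio of both lay within 2-fold, with log2 values of -0.58 for tca-11 and 0.18 for ota. NCU04908 had 717 and 367 in ve-1 against 181 and 226 in wild type (1.43, SE 0.37, edgeR adjusted p = 0.0355), and NCU04936 had 535 and 380.0 against 172 and 182 (1.40, SE 0.39, edgeR adjusted p = 0.0456). NCU04908 and NCU04936 had also been higher in ve-1 in standard medium, by log2 values of 1.33 and 1.15.

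Among the genes that were lower, NCU04314 had 6323 and 2302 normalised counts in ve-1 without iron, against 25500 and 34683 in wild type, a log2 fold change of -2.79 (SE 0.48, edgeR adjusted p = 0.0113). NCU07074 had 27.5 and 35 against 145 and 203, a log2 fold change of -2.43 (SE 0.27, edgeR adjusted p = 0.00423). NCU08167 had 108 and 54.4 against 164 and 478 (-1.97, SE 0.53, edgeR adjusted p = 0.0415). In standard medium the log2 ratios of these 3 genes were -1.19, -1.26 and -0.57, also towards lower levels in ve-1. NCU04314 overlaps another annotated gene, and the strand setting of the counting is not given in the sources used here, so its counts are uncertain.

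The calls of NCU04314 and NCU07074 held in each of 13 alternative fits, and that of tca-11 in 10; tca-11 lost it without either ve-1 iron-free library or without wild-type iron-free replicate 2. Of the 7 genes, 2 were still called without wild-type iron-free replicate 2, 3 without any 1 of the 4 ve-1 libraries, 4 without wild-type iron-free replicate 1 and 6 without either wild-type standard library. The call of ota was lost without ve-1 iron-free replicate 2 or any ve-1 standard or wild-type iron-free library, with only the 4 iron-free libraries, and with the replicate number as a block. That of NCU04908 was lost without ve-1 iron-free replicate 1 or any ve-1 standard or wild-type iron-free library, and with only the 4 iron-free libraries. That of NCU04936 was lost without any library of ve-1 or any iron-free library of wild type, and with median-of-ratios scaling. That of NCU08167 was lost without any library other than wild-type iron-free replicate 1, with only the 4 iron-free libraries, and with the replicate number as a block.

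**Figure D5:**
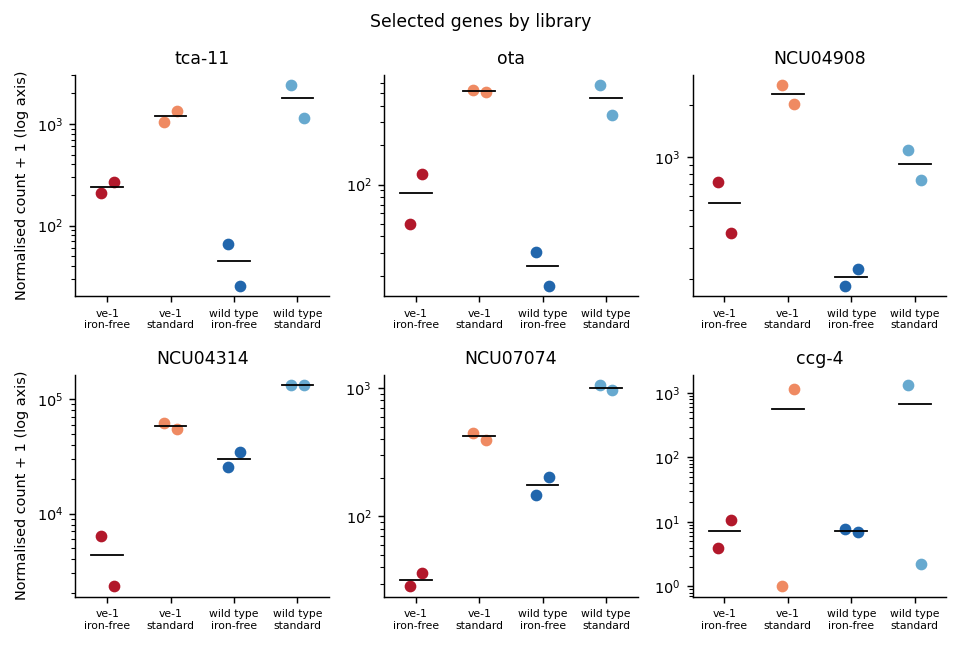
Normalised counts plus 1 (log axis) of 6 genes in each library (points, replicate 1 left) with group means (bars). In iron-free medium tca-11, ota and NCU04908 lie above wild type in ve-1 and NCU04314 and NCU07074 below it; ccg-4 is high in 1 of 2 standard libraries of each genotype.

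The interaction of genotype and medium, the difference in fall between ve-1 and wild type, is built from the ratios that chose the set, so its counts and values describe the 60 genes and are not an independent test of them. In edgeR's quasi-likelihood fit with Benjamini-Hochberg adjustment 0 of the 60 were called, where 0.246% of all genes were (0.0862% with a higher and 0.16% with a lower ratio in ve-1). At an unadjusted p under 0.05 there were 8 (20.3% of all genes), and DESeq2 called 2, tca-11 and NCU07869 (6.15% of all genes). For tca-11 the fall was 5.02-fold in ve-1 and 39.4-fold in wild type, an interaction of 3.04 on the log2 scale (SE 0.71). For NCU07869 it was 30.1-fold in ve-1 and 190.9-fold in wild type, an interaction of 2.70 (SE 0.91). The median standard error over the 60 genes was 0.84.

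In standard medium the rule held both genotypes under 3-fold apart. Within that bound 37 genes were lower in ve-1 and 23 higher, with a median log2 ratio of -0.23 and a range of -1.57 to 1.56. Of these, 13 were at least 2-fold lower and 9 at least 2-fold higher. The 4 genes with the most reads were all lower in ve-1, with 61821 and 54774 in ve-1 against 132522 and 133370 in wild type for NCU04314.

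The authors' deposited tables hold only genes with an adjusted p under 0.05. For iron-free against standard medium they listed 56 of the 60 genes in ve-1 and 59 in wild type. Each was listed as lower without iron, from the same libraries as the rule. Over all 9730 genes counted, 1837 were listed in ve-1 and 1004 in wild type. The authors' deposited table for ve-1 against wild type in iron-free medium listed 10 of the 60, 6 higher and 4 lower in ve-1. In all it listed 1548 of the 9730 genes.

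By position, 8 of the 60 genes stood next to another of the 60 in the order of protein-coding genes in assembly NC12. They formed 4 pairs, namely NCU09209 with NCU09210, NCU02579 with NCU02580, NCU17100 with NCU05512, and NCU09085 with NCU16318. The genes of the last 2 pairs overlap each other, so their reads may have been shared. In all, 13 of the 60 overlapped another annotated gene, among them NCU02238, NCU07894, NCU17100, NCU04314, NCU05338 and gh31-3, and their counts are uncertain for the same reason as those of NCU04314. NCU09209 and NCU09210 do not overlap. In ve-1 NCU09209 had 13.7 and 4.53 normalised counts without iron, against 42.9 and 215 with it. NCU09210 had 5.88 and 3.24 there without iron, against 67.2 and 324 with it. In wild type without iron NCU09209 had 28.8 and 11.7 and NCU09210 had 25.0 and 16.6. Both means were lowest in ve-1 without iron, but the rule left only the iron-free groups to be lowest. The iron-free libraries of NCU09209 overlapped between genotypes, and neither gene was called between these groups.

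Neighbouring genes outside the set that overlapped none of it were examined too. Of 82 tested by edgeR's quasi-likelihood test, 24 were called lower without iron in ve-1 (29.3%, against 11.6% of all genes). There 8 were called higher, where 10.9% of all genes were. In wild type 10 were called lower (12.2%, against 5.1% of all genes) and 0 higher, where 1.47% of all genes were. At an unadjusted p under 0.05, 2 were higher in wild type. DESeq2 called 31 lower and 9 higher in ve-1, and 15 lower and 0 higher in wild type. The median log2 fold change of the 82 neighbours was -0.59 in ve-1 and -0.41 in wild type, where that of all genes was 0.02 and 0.03. By chromosome, VI held 12 of the 60 genes (20% against 9.92% of tested genes) and I held 9 (15% against 25.1%), with 5 to 10 on each of the others.

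Lists of genes with symbols were set beside the 60 genes, of which only 7 have a symbol. In iron-free against standard medium edgeR called 22.4% of all genes in ve-1 (10.9% higher, 11.6% lower) and 6.57% in wild type (1.47% higher, 5.1% lower). In the respiratory chain iron-sulfur clusters and haem carry electrons. Its list was taken by symbol, with nuo (complex I subunit) genes among them, and which of the products hold iron was not looked at. It has 37 tested genes, none of them in the set. Without iron 20 of these rose and 0 fell in ve-1 (0 lower at an unadjusted p under 0.05 and with DESeq2), and 3 fell and 0 rose in wild type (0 higher at an unadjusted p under 0.05 and with DESeq2). In wild type DESeq2 called 7 lower, and 10 were lower at an unadjusted p under 0.05. Their median log2 fold change was 0.93 in ve-1 and -0.17 in wild type, where that of all genes was 0.02 and 0.03. The 3 that fell in wild type were cyc-1 (cytochrome c; log2 fold change -4.21, SE 0.65), the Rieske iron-sulfur protein gene fes-1 (-1.64, SE 0.29) and qcr7 (-2.32, SE 0.33).

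The tricarboxylic acid cycle list has 18 tested genes, with tca-11 in the set. Without iron 7 of them rose and 2 fell in ve-1 (tca-11 and tca-13), and 5 fell in wild type (tca-3, tca-10, tca-11, tca-12 and tca-13) and 0 rose there by edgeR (2 higher at an unadjusted p under 0.05 and 2 with DESeq2). DESeq2 called 9 lower in wild type. For tca-13 the log2 fold changes were -1.94 (SE 0.29) in ve-1 and -3.81 (SE 0.31) in wild type. It missed the set by its ratio in ve-1, where it averaged 328 ± 60.7 normalised counts without iron and 1265 ± 178 with it (SD, n = 2 each). Of 6 catalase and superoxide dismutase genes, which act on peroxide and superoxide, 3 fell in ve-1 and 2 in wild type, where DESeq2 called 5 lower. Whether the responses of these lists differed between genotypes was not tested.

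Other lists moved in smaller numbers. Of 6 genes of acetate use, 1 rose in ve-1 and 4 fell in wild type. All 3 ergosterol genes rose in ve-1 and 2 did in wild type. Of 3 genes of metal regulation and transport, 1 rose and 1 fell in ve-1 and 2 fell in wild type. Of 68 glycoside hydrolase genes, 5 rose and 12 fell in ve-1, and 2 rose and 4 fell in wild type. That list holds gh31-3 of the set. A list of 17 genes took in every con-, eas or ccg- name, so it is not one of conidial genes alone and holds ccg-4 of the set. Of these 17, 1 rose and 6 fell in ve-1 and 6 fell in wild type. Of 11 heat shock genes, 2 fell in ve-1 and 3 in wild type, and of 4 sugar transport genes, 1 fell in ve-1 and 2 in wild type. Of 13 arginine genes, 7 rose in ve-1 and 1 in wild type. DESeq2 called more in several of these lists in wild type, with 5 glycoside hydrolase genes higher and 8 lower. It also called 11 con-, eas or ccg- genes lower and 1 higher, 6 heat shock genes lower and 3 arginine genes higher. In ve-1 it called 3 genes of acetate use, 8 of glycoside hydrolases and 2 con-, eas or ccg- genes higher.

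In ve-1, 1 of 10 sulfur genes rose and 4 fell, 1 of 5 nitrate genes rose and 1 of 7 light genes fell. In wild type edgeR called 0 genes of these 3 lists; 2 sulfur, 2 nitrate and 1 light gene had an unadjusted p under 0.05, and DESeq2 called 1, 1 and 0. Of 2 cytochrome P450 genes, 4 genes with an aod- symbol (for alternative oxidase) and 1 thiamine gene, edgeR called 0 in either genotype. The aod- genes were taken by name, and which of them encode the oxidase itself was not looked at. In ve-1, 2 of the aod- genes and the thiamine gene were higher at an unadjusted p under 0.05 and with DESeq2. Over all 17 lists 79 calls in ve-1 became 4 without ve-1 standard replicate 1, 41 without its replicate 2 and 27 without ve-1 iron-free replicate 2. In wild type 35 calls became 12 and 2 without iron-free replicate 1 or 2, and 8 without standard replicate 1.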

How the data were processed

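Per the values of the deposited files, the authors gave raw read counts per gene for each of 8 libraries; per the submitters' processing notes, the tools were FastQC, Trim Galore, STAR and DESeq2. Libraries came from a stranded kit, per the labels' protocols; for the counting tool, strand setting, genome build and annotation, no statement was found (not given in the sources used here). A further 4 tables deposited by the authors give comparisons with their own group means (a normalised count signal), log2 fold changes and adjusted p-values, only for genes under 0.05.

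Groups and replicate numbers came from the sample titles. Normalised counts are counts divided by median-of-ratios size factors. Tests used R 4.3.3 and edgeR 4.0.16: filterByExpr (minimum count 10, minimum total 15), TMM, a model of 4 group means fitted to all 8 libraries (robust dispersion estimates, 4 residual degrees of freedom), two-sided, adjusted by Benjamini-Hochberg over 8118 genes, called under 0.05. DESeq2 1.42.0 was an alternative. The procedure was run on simulated counts with the same spread for every gene and no differences between strains. It therefore does not show how often calls among the genes of the set are wrong. Iron-free libraries came from the same strain as the same-numbered standard library of their genotype, going by strain codes in the deposited file names; deviations from group means correlated at -0.00239 in ve-1 and 0.0565 in wild type. No label says whether cultures were independent beyond their strain, so p-values measure the spread between these libraries.

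The 60 genes, the 17 symbol lists and the tests were chosen with earlier results of these data known. Named were all genes with a symbol, the 10 with the highest mean normalised count in standard medium (coding lengths were not used here, so levels of different genes are not compared), the 8 largest falls, those called between iron-free groups, and those nearest the limit. Some called genes of the respiratory chain and tricarboxylic acid cycle lists were named too. Results of the other lists are given as counts. Names and gene order came from the RefSeq table of assembly NC12, which matched 9729 of 9730 identifiers. Promoter and protein features were not analysed here.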

Additional observations from a re-analysis of the deposited data

How the results depend on the processing

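With 2 libraries a group, single libraries set much of the outcome. The set itself held 60 genes; it held 120 at a limit of 1/3 and 26 at 1/8, 115 with no limit between genotypes in standard medium, 23 when every library had to meet the limit, and from 44 to 99 with 1 library left out, of which at least 40 were among the 60. TMM scaling (63) and minimum means of 50 (68) or 200 (50) moved it less. Of the 60 genes, 7 were called between the iron-free groups; the number was 4 with only the 4 iron-free libraries, from 3 to 7 with 1 library left out, 6 with the replicate number as a block and between 6 and 9 otherwise. The interaction called 0, and 2 with DESeq2, from 0 to 0 with 1 library left out, and 0 with a replicate block by number or by strain; the strain block was added after seeing the data. The median log2 fold change of the 60 genes between the iron-free groups ran from -0.44 without ve-1 iron-free replicate 1 to 0.55 without wild-type iron-free replicate 1. List genes called in ve-1 numbered 79 and from 4 to 78 with 1 library left out; in wild type 35, 69 with DESeq2 and from 2 to 44 with 1 library left out. With the replicate block by number, 76 in ve-1 and 35 in wild type were called, and by strain, which pairs the media, 68 and 26. Neither block moved a count by over 1.5 times, and by number ota and NCU08167 lost their calls. No label links the replicate numbers of ve-1 to those of wild type. Deviations from group means correlated at -0.0255 between the iron-free groups of the genotypes. Counts of single lists stayed within 1.5 times in 742 of the other fits and moved in 142. No call changed direction in the alternatives run for the 7 genes. The causes were not tested. The promoter window was not run.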
